A study of Homo sapiens with 2 samples.

Results

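Complement is a set of plasma proteins, cell surface regulators and receptors that marks and kills microbes, and most of its plasma proteins are made by hepatocytes. The classical pathway starts with C1q on antibody, the lectin pathway with sugar-binding collectins and ficolins, and the alternative pathway runs by itself on surfaces. All converge on the cleavage of C3, then of C5, after which C6, C7, C8 and C9 form a pore in the membrane, and soluble and membrane-bound regulators hold the cascade back. Here 34 complement genes were described, found by looking up a fixed set of gene symbols in a table of 57158 genes. Each of the 34 symbols matched 1 row in the table. A further row without a symbol overlaps C2 and CFB, as described below, and identifiers that matched no gene could not be checked for further entries.

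The cells were liver progenitors made from CyT49, an established human embryonic stem cell line. Definitive endoderm at day 2 received BMP4 at 50 ng/ml and FGF2 at 10 ng/ml for the following 6 days in suspension, in medium with 0.2% serum, and the RNA is from day 8. The series holds 2 strand-specific poly(A) libraries of that 1 group, made from 1 cell line, with no earlier, untreated or mature liver sample. The published transcriptomes that the submitters set beside them were not used here. Levels were therefore described and no condition was compared with another.

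Levels are given in RPKM, which are reads scaled to gene length and sequencing depth. The steps between the values of single-exon genes correspond to 25182491 reads in library 1 and 25264803 in library 2. Every value under 0.5 RPKM is listed as 0.1 and is called the floor below. The libraries differed by 1.08 times the variance of counting alone over 777 single-exon genes, so they were counted as 1 sample, and their difference measures technical error. The labels do not say whether they came from separate cultures. All 10 hepatoblast markers looked up were at 1 RPKM or more in both libraries, beside 59.8% of all protein-coding genes. Of these markers, APOA1, an apolipoprotein, was highest and ALB (albumin) lowest at 6.84 and 6.53 RPKM in libraries 1 and 2. As these are bulk samples, fewer cells that make a transcript and less of it in each cell cannot be told apart.

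The complement set was split between a few well expressed genes and a majority at the floor. At 1 RPKM or more in both libraries, called detected below, stood 10 of the 34 genes (29.4%), beside 59.8% of 19344 protein-coding genes. Of the 34, 20 (58.8%) lay at the floor in both libraries, as did 33.8% of protein-coding genes. The median level of the complement genes was accordingly the floor value, and that of protein-coding genes was 2.42 RPKM. At 0.5 RPKM or more stood 14 of the 34, beside 65.1% of protein-coding genes, and at 5 RPKM or more 5 of the 34, beside 35.4%. The 5 highest, SERPING1, CLU, C5, CD46 and CD59, held 91.5% of the summed RPKM of all 34 in either library, and no complement gene lay between 5 and 10 RPKM. Regulators on membranes and in plasma were detected in 5 of 8 cases (62.5%), a share near that of all protein-coding genes (59.8%). Pathway components were detected in 5 of 24 cases (20.8%) and the receptors in 0 of 2.

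**Figure D1:**
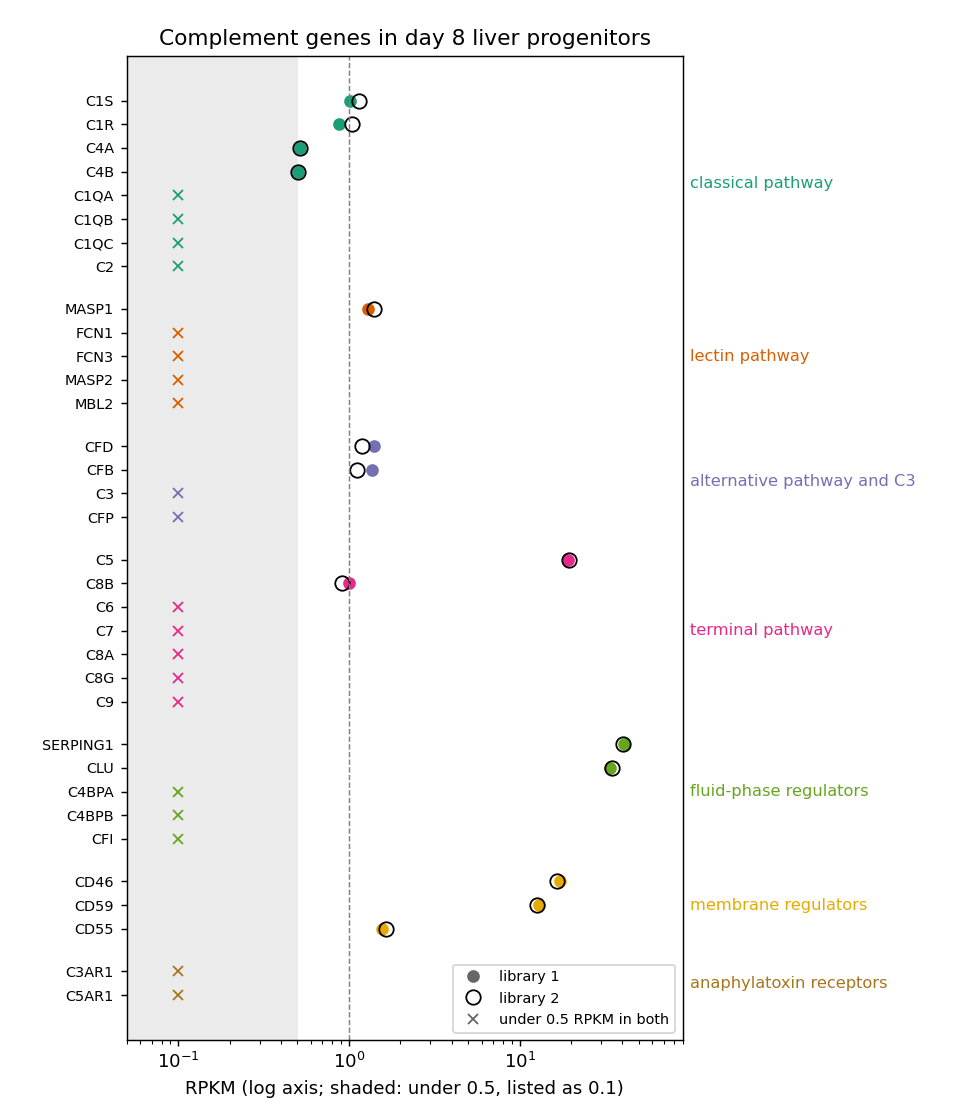
RPKM of each of the 34 complement genes on a log axis, grouped by role, with filled circles for library 1, open circles for library 2, crosses for genes under 0.5 RPKM in both and a dashed line at 1 RPKM. The highest points are SERPING1, CLU, C5, CD46 and CD59, all above 10 RPKM, while the classical, lectin and alternative pathway genes lie under 2 RPKM.

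**Figure D2:**
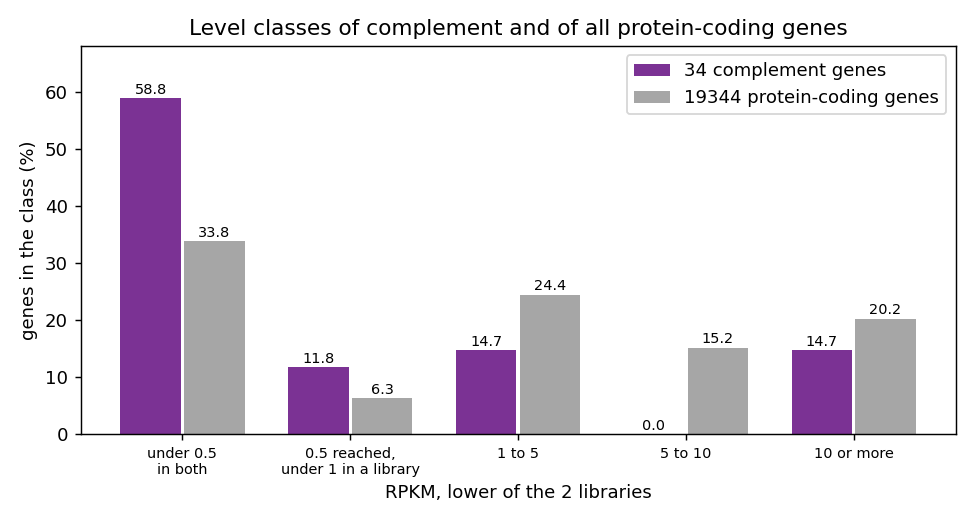
Share of the 34 complement genes and of 19344 protein-coding genes in each class of level, in percent, by the lower of the 2 libraries. The floor class holds 58.8% of complement genes and 33.8% of protein-coding genes, and the class from 5 to 10 RPKM holds no complement gene and 15.2% of protein-coding genes.

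The classical pathway was low throughout, with 1 of 8 genes detected, beside 59.8% of all protein-coding genes. At the floor in both libraries were 4 of the 8, beside 33.8% of protein-coding genes. C1QA, C1QB and C1QC, which encode the chains of the recognition molecule C1q, were each listed at the floor in both libraries. C1q is made mainly by macrophages. Of 12 macrophage markers looked up, 2 (16.7%) were detected, CD68 and CD163, beside 59.8% of all protein-coding genes. Over all 12 markers, with those at the floor taken as 0.1, the summed level was 6.626 and 6.002 RPKM in libraries 1 and 2. At the floor in both stood 9 of the 12, among them PTPRC, CSF1R, SPI1 and TYROBP. A link between these markers and the level of the C1q genes was not tested.

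C1R, a protease of the C1 complex, had 0.871 RPKM in library 1 and 1.04 in library 2. The row of C1R shares 3021 bp on the same strand with C1RL, which had 7.55 and 7.78 RPKM. How reads in that stretch were assigned is not given in the sources used here. C1S, the protease that C1r activates, had 1.02 and 1.15 RPKM and was the only gene of the classical pathway detected. These 2 neighbours on chromosome 12 lay next to the detection limit, and C1R passed it in library 2 alone. Stromal cells also make C1r and C1s. Of the stromal and stellate markers, 6 of 10 (60%) were detected, a share near the 59.8% of all protein-coding genes. VIM had 94.4 and 95.8 RPKM and PDGFRA 18.5 and 17.9, while COL3A1, DCN and THY1 were at the floor. The summed level of that list was 132 RPKM in library 1 and 133 in library 2, most of it from VIM. The part of stromal cells in the levels of C1R and C1S was not tested. C2, the protease that joins C4 in the classical C3 convertase, was at the floor.

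C4A and C4B encode the isotypes of C4, which differ in the groups they bind on a target surface. C4A had 0.518 RPKM in library 1 and 0.516 in library 2, and C4B had 0.502 and 0.506, just above the lowest value that the table keeps. Together they summed to 1.02 RPKM in either library. Their reads can hardly be separated, since the coding sequences of 5232 bases differ at 13 bases (99.8% identity) and 93.6% of the 50-base windows of C4A also occur in C4B. None of the other 9 pairs of related members compared, such as C8A with C8B or C3 with C5, shared a 50-base window, so this limit touched the C4 genes alone among the pairs examined. The stretch with the most differences, from base 3337 to base 3396 of the coding sequence counted from the A of the start codon, is printed from the GENCODE transcripts on GRCh37 because only reads across such bases can tell the isotypes apart. Capitals mark the 5 differing bases, which are C3359T, G3362C, T3370A, G3373C and C3375T with the base of C4A first.
C4A: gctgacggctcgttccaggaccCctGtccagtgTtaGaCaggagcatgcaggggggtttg
C4B: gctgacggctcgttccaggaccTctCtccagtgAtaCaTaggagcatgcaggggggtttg

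The lectin pathway had 1 detected gene of 5, beside 59.8% of all protein-coding genes. MASP1, a protease that circulates with the lectins, had 1.30 RPKM in library 1 and 1.41 in library 2. MASP2, the protease that cleaves C4 and C2, was at the floor, and so were the recognition molecules MBL2 (mannose-binding lectin), FCN1 and FCN3 (ficolins). MBL2 is a liver product and FCN1 is known from monocytes, so the floor covered recognition genes of both sources.

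Of the alternative pathway and C3, CFD and CFB were detected at low levels and C3 and CFP were not. CFD, the protease that cleaves factor B, had 1.41 RPKM in library 1 and 1.19 in library 2. CFB, the factor that forms the alternative convertase, had 1.37 and 1.12 RPKM. CFP, which stabilises that convertase and is made by leukocytes, was at the floor. C3 itself, the protein on which all pathways converge and an abundant product of adult liver, was at the floor in both libraries. For its canonical transcript of 5231 bases that means fewer than about 65.9 reads in library 1.

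The row of CFB is uncertain, because a second protein-coding row without a symbol, ENSG00000244255, runs on the same strand of chromosome 6 from 31895475 to 31919825 (GRCh37) across C2 and CFB. It had 2.01 and 1.61 RPKM in libraries 1 and 2 and overlaps CFB over 6399 bp. Adding it to CFB gave a mean of 3.05 RPKM, against 1.24 for CFB as listed, and adding it also to C2 would bring C2 over the limit, with 11 of 34 genes detected. How reads were shared between these rows is not given in the sources used here.

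The terminal pathway was represented by C5, and its later members were low or at the floor. C5, whose cleavage yields the anaphylatoxin C5a and the first piece of the pore, had 19.3 RPKM in library 1 and 19.5 in library 2, about 2652 and 2698 reads on its canonical transcript. It ranked 1929 of the protein-coding genes by mean level and was the only pathway component at 10 RPKM or more, a level that 20.2% of protein-coding genes reached. C8B, the beta chain of C8, had 1.01 and 0.917 RPKM and so reached 1 RPKM in library 1 alone. C6, C7, C8A (the alpha chain), C8G (the gamma chain) and C9, the subunit that lines the pore, were at the floor in both libraries. C5 therefore stood far above the remaining 6 genes of the pathway in both libraries, with no overlap.

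C5 and C6 also differed widely in the base composition of the windows taken as promoters. These are the 250 bases before the start in the RefSeq table (GRCh38.p14). At its start the C5 row shares 536 bp with CNTRL, on the opposite strand at 1.88 and 1.93 RPKM in libraries 1 and 2. The C5 window may therefore not be particular to C5, and which start C5 used in these cells was not tested. Both windows are printed here with each CG dinucleotide, the pair at which vertebrate DNA is methylated, in capitals. The C5 sequence at chr9:121074866-121075115, minus strand, has 69.2% G and C and 28 CG dinucleotides, and the C6 sequence at chr5:41261470-41261719, minus strand, has 28.4% and 1. The pair is an extreme one. C6 had the lowest G and C of the 25 complement genes with such a window, and C5 the most CG dinucleotides of the detected ones. C7, C8A and C9, also at the floor, had 40.8%, 37.2% and 46.4% G and C.
C5: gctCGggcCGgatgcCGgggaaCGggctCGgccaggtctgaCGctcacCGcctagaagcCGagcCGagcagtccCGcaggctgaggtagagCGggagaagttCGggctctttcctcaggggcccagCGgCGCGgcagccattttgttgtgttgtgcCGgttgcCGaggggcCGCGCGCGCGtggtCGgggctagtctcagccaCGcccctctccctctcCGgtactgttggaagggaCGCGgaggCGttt
C6: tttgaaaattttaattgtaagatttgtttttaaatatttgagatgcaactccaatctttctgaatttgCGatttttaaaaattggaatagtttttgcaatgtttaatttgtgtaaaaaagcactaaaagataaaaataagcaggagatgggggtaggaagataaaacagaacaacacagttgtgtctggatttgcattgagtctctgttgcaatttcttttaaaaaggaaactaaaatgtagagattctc

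Among the soluble regulators, SERPING1 and CLU were the highest of all 34 genes, and the others were at the floor. SERPING1, the C1 inhibitor that blocks C1r, C1s and the MASP proteases, had 41.0 RPKM in library 1 and 40.5 in library 2, above 95.9% of protein-coding genes. It is ENSG00000149131.11, on chromosome 11 from 57364860 to 57386644 (GRCh37). CLU, clusterin, a chaperone that also keeps terminal complexes out of membranes, had 34.02 and 34.78 RPKM. SERPING1 and CLU differ by more than their libraries do. C4BPA and C4BPB, the chains of C4b-binding protein, were at the floor, as was CFI, the protease that inactivates C3b and C4b. CFI needs cofactors, and of its cofactors in the set CD46 was well expressed.

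All 3 membrane regulators were detected, beside 59.8% of all protein-coding genes. CD46, the membrane cofactor for factor I, had 17.2 RPKM in library 1 and 16.6 in library 2. CD59, which stops C9 from entering the pore, had 12.95 and 12.72 RPKM. CD55, which takes convertases apart, was lower at 1.55 and 1.64 RPKM, so that these regulators were ordered CD46, CD59, CD55 in both libraries without overlap. The anaphylatoxin receptors C3AR1 and C5AR1, known mainly from myeloid cells, were at the floor.

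CD46 and C4BPA lie in the same regulator cluster on chromosome 1, where C4BPB and C4BPA were at the floor, CD55 was low and CD46 was high over 706654 bp. Their promoters are shown as the well expressed and the floor member of 1 cluster, again with CG dinucleotides in capitals. The CD46 sequence at chr1:207751788-207752037, plus strand, has 64.8% G and C and 19 CG dinucleotides, and the C4BPA sequence at chr1:207103983-207104232, plus strand, has 40.4% and 4 (both RefSeq, GRCh38.p14).
CD46: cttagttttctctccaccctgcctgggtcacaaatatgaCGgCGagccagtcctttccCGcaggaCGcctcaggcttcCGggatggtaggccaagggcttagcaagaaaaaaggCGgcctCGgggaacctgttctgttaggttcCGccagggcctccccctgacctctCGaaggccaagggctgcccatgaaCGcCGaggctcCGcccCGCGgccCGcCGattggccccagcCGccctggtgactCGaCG
C4BPA: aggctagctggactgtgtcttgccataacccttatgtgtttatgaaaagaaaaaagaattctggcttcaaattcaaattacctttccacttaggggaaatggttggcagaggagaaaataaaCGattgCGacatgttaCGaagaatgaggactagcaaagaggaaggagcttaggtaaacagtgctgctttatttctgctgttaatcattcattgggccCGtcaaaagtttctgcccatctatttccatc

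Promoters in the RefSeq table matched 25 of the 34 genes, and those of C1QC, C1S, C4A, C4B, FCN3, C3, C8G, SERPING1 and CLU were not matched. The 7 detected genes among them had a median of 12 CG dinucleotides in 250 bases, and the 16 at the floor a median of 2. Protein-coding genes showed the same order, with medians of 21 for detected genes and 5 for those at the floor. C2 went the other way, with 38 CG dinucleotides, the most of any matched complement gene, and a level at the floor. Its row starts at 31865562 (GRCh37), and EHMT2, on the opposite strand at 24.6 and 24.0 RPKM in libraries 1 and 2, reaches 31865475. The 250 bases before that C2 start thus run into EHMT2, and which start C2 would use was not tested. MASP1 had 2 CG dinucleotides and was detected. These are descriptions of the sequence and give no cause for a level.

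**Figure D3:**
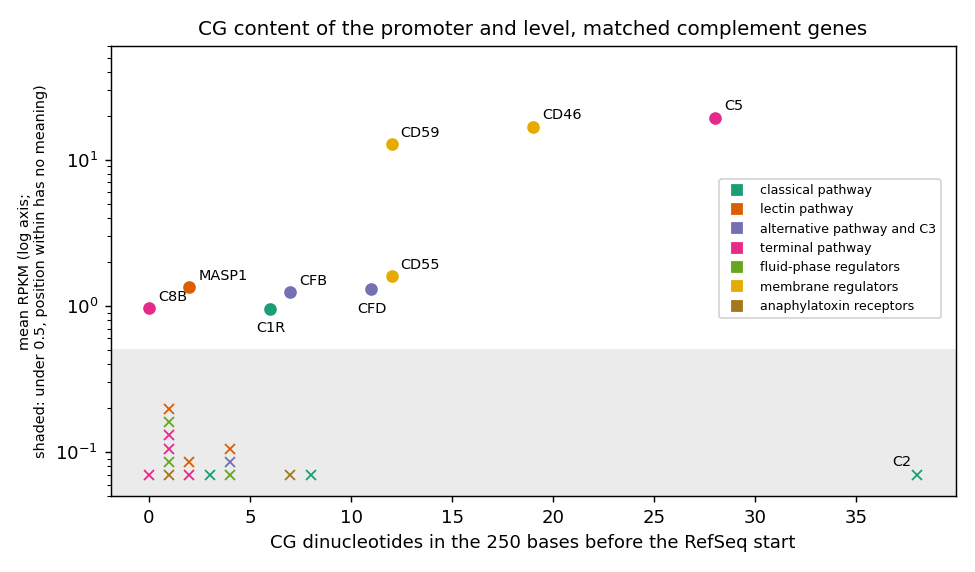
Mean RPKM of 25 complement genes on a log axis against the number of CG dinucleotides in the 250 bases before the RefSeq start, coloured by role, with crosses in the shaded area for genes under 0.5 RPKM. C5 with 28, CD46 with 19 and CD59 with 12 are the highest points, and C2 with 38 lies in the shaded area. The windows of C5 and C2 lie at or near CNTRL and EHMT2, which run on the opposite strand.

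Letters of 8 motifs were searched on both strands of the same 250 bases, and hits of different motifs may overlap. The FOXA motif TGTTTNC occurred in 9 of 25 complement promoters (36.0%) and in 12.4% of 14982 protein-coding promoters. It was present in 7 of the 16 promoters of genes at the floor and in 1 of the 7 of detected genes, beside 16.7% of protein-coding promoters of genes at the floor and 10.0% of those of detected genes. The STAT motif TTCNNNGAA occurred in 6 of 25 (24.0%) and in 6.09% of protein-coding promoters, and the C/EBP motif TTGCNNAA in 5 of 25 and in 7.16%. The GC box GGGCGG was found in 4 of 25 (16.0%) and in 57.2% of protein-coding promoters. The CCAAT box CCAAT was found in 10 of 25 (40.0%) and 34.7%, the TATA box TATAAA in 3 and 9.01%, and the letters GTTAAT, part of an HNF1 site, in 2 and 4.82%. The HNF4 letters CAAAGTCCA were in none of the 25 windows, beside 0.267% of protein-coding promoters. The 25 complement promoters had a median of 54% G and C and 4 CG dinucleotides, beside 62.4% and 18 for all protein-coding promoters. The motif shares were not adjusted for this difference in composition. No order between levels and motifs was tested.

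Differences between the libraries in complement genes lay within the range that held 95% of other genes of their level. For the 5 genes from 1 to 2 RPKM, the absolute log2 ratio of the libraries ran from 0.08 for CD55 to 0.29 for CFB. Of 1471 protein-coding genes in that range, 95% lay within 0.37, and their median was 0.10. For the 5 genes above 10 RPKM the ratio ran from 0.02 to 0.05. Of 3398 protein-coding genes from 10 to 50 RPKM, 95% lay within 0.11, and their median was 0.03. None of the 14 genes above the floor exceeded the bound of its range. In the same terms, C1S, MASP1, CFB, CFD and CD55 cannot be ordered reliably against their neighbours in level, whereas the gap between CD55 and CD59 exceeds any of these differences.

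**Figure D4:**
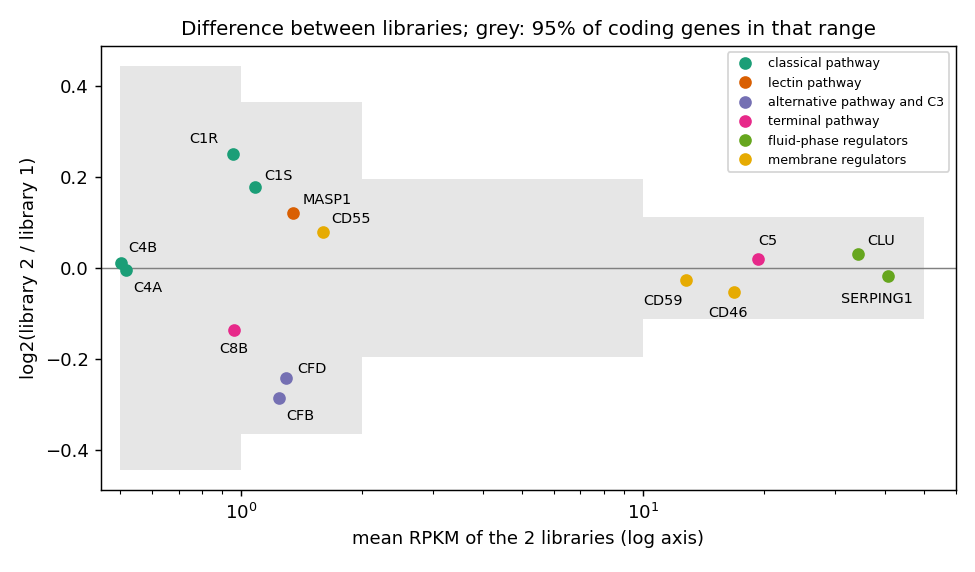
Log2 ratio of library 2 to library 1 against mean RPKM (log axis) for the 14 complement genes above the floor, coloured by role, with grey bands holding 95% of protein-coding genes in each range of level. All 14 points lie inside the bands, CFB lowest and C1R highest.

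Complement genes outside the set were also mostly at the floor. Of 23 others looked up, 4 (17.4%) were detected, beside 59.8% of all protein-coding genes. In both libraries 16 of the 23 were at the floor, beside 33.8% of protein-coding genes. VTN, vitronectin, which binds terminal complexes, was by far the highest with 248 and 247 RPKM in libraries 1 and 2. C1QBP, a mainly mitochondrial protein that also binds C1q, had 35.7 and 33.8 RPKM. CPN1, the catalytic chain of the carboxypeptidase that trims anaphylatoxins, had 13.8 and 13.5 RPKM, while its partner chain CPN2 had 0.908 and 0.863. C1RL, a protease related to C1r that overlaps its gene, had 7.55 and 7.78 RPKM. At the floor stood the receptor C5AR2, the receptor CD93 and the ficolin FCN2, among others.

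Receptors and transducers of the cytokines that raise complement production in liver were set beside the 59.8% of all protein-coding genes that were detected. Of 18 genes of interleukin-6 and acute phase signalling, 14 (77.8%) were detected, led by the receptor chains LIFR at 25.9 and IL6ST at 17.7 RPKM on average, TNFRSF1A at 13.2 and the adaptor MYD88 at 9.87. IL6 itself, the interleukin-1 receptor IL1R1 and the oncostatin M receptor OSMR were at the floor. Of 13 interferon signalling genes, 9 (69.2%) were detected, among them ISG15 at 29.9, IFNGR2 at 14.7 and IRF3 at 11.5 RPKM on average, with CIITA, IFIT1 and IRF1 at the floor. Of the hepatic transcription factors, 14 of 15 were detected, led by FOXA2 at 72.1, HHEX at 59.7, HNF4A at 44.7 and GATA4 at 43.4 RPKM, with NR1H4 at the floor.

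Among other secreted liver proteins the shares detected lay above the 29.4% of complement genes and below the 59.8% of all protein-coding genes, differences that were not tested. Of 20 acute phase proteins, 11 (55.0%) were detected, with the fibrinogen chain FGB at 868, TTR at 776, SERPINA1 at 365 and RBP4 at 327 RPKM on average, and with CP, CRP and HAMP at the floor. Of 19 coagulation factors, 8 (42.1%) were detected, with F10 at 48.4, F2 (prothrombin) at 40.2, PROS1, protein S, part of which circulates bound to C4b-binding protein, at 16.1 and F7 at 16.0 RPKM, and with F11, F13B and F5 at the floor. SERPING1 thus lay in the range of F2 and F10, and C5 near PROS1 and F7. Endothelial markers were detected in 1 of 7 cases, KDR at 1.60 and 1.61 RPKM, with CDH5, ENG and LYVE1 among those at the floor.

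**Figure D5:**
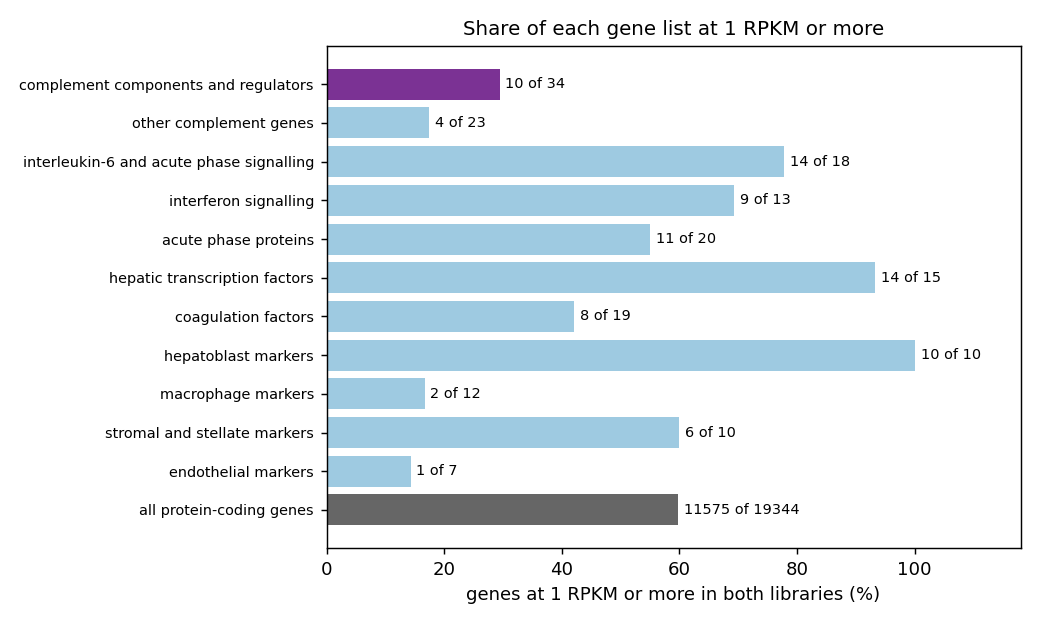
Share of the genes of each list at 1 RPKM or more in both libraries, in percent, with the counts beside the bars, from the 34 complement genes at the top to all protein-coding genes at the bottom. Complement stands at 29.4% and protein-coding genes at 59.8%, and hepatoblast markers and hepatic transcription factors are the longest bars.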

How the data were processed

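Poly(A) RNA was sequenced in strand-specific libraries. The authors deposited 1 table of RPKM, normalized to gene length and to reads. Cufflinks 2.2.0, STAR 2.3.0e and FastQC 0.10.1 are listed in the submitters' processing notes, and Sailfish and hg19 in the series text. Not given in the sources used here are the tool behind the RPKM, the use of strand in counting and the annotation release. RPKM divides by 1 length per gene, which can misstate genes with long alternative ends. From the values, anything under 0.5 had been set to 0.1.

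Identifiers were joined without version to GENCODE release 44 on GRCh37, and 54428 of 57158 (95.2%) matched. The background was 19344 protein-coding symbols with 1 row each. Depth came from single-exon genes, whose RPKM times end minus start gave whole reads within 0.02 in 84.1% and 84.3% of cases under 500 reads in libraries 1 and 2. Genes with several exons did not, so no count test was run, and reads per member are estimates from the canonical transcript length. The variance ratio was taken over genes with a mean of at least 50 reads. Tested on simulated data of 1484 genes, the ratio came to 1.06 for pure counting noise, and to 23.8 once each library varied by a further 10%. PCR reads without molecular identifiers are not independent molecules, so reads give counting error only.

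With 1 group no test was made. Counts of members are set beside the same count over protein-coding genes. The alternatives were other detection limits, each library alone, summed rows, rescaling and another pseudocount. All 34 members are named, and of each other list up to 4 of the highest genes and up to 3 of those at the floor. Other genes named, among them ALB, CPN2, FCN2, PTPRC, SPI1 and TYROBP, were chosen after their values were seen. The members and lists were chosen with earlier results of these data known, and the motifs and printed promoters after the levels were seen. Not every list gene was matched (PECAM1 was not), and some list genes are not reported here by name. Related members were compared by coding sequence, since a protein table, as first planned, was not used here. Python 3.11.15, pandas 2.3.3, numpy 2.4.6, Biopython 1.88 and matplotlib 3.10.9 were used.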

Additional observations from a re-analysis of the deposited data

How the results depend on the processing

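The detected count of 10 of 34 became 5 at a limit of 5 RPKM, beside 35.4% of protein-coding genes, and 14 at 0.5 RPKM, beside 65.1%. It was 11 with either library alone, since C1R passes in library 2 and C8B in library 1, and 14 after rescaling to a fixed sum over protein-coding genes, which puts the limit under 0.5 RPKM. In each of these settings the share of complement genes stayed below that of protein-coding genes. The median level of 0.14 on the log2(RPKM + 1) scale was 0.59 after rescaling, -2.32 with a pseudocount of 0.1 and 1.22 without the genes at the floor, beside 1.78, 3.72, 1.34 and 2.75 for protein-coding genes in the same order. Summing rows changed nothing, because each symbol has 1 row. Depth limits what the floor can hide: for the 20 genes there, 0.5 RPKM corresponds to 11.1 reads (C8G) to 95.5 reads (FCN1) in library 1. No paired analysis was possible because there is 1 group.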

Other observations

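Levels of the protein-coding genes around the complement clusters were mixed. Of 43 neighbours within the clusters or next to them, 31 were detected, beside 59.8% of all protein-coding genes. At the floor were 11 of them, beside 33.8% of protein-coding genes. In the MHC class III region of chromosome 6, C2 was at the floor, CFB had 1.37 and 1.12 RPKM, and C4A and C4B lay near 0.5, while among their protein-coding neighbours EHMT2 had 24.6 and 24.0 RPKM, NELFE 22.0 and 22.4, ZBTB12, which overlaps C2 on the opposite strand, 12.61 and 13.03, and SKIC2 10.7 and 10.8 in libraries 1 and 2, and CYP21A2 was at the floor. C1S had 1.02 and 1.15 RPKM, and LPCAT3, which overlaps it on the opposite strand, had 18.9 and 18.6. MASP2 was at the floor and TARDBP, which overlaps it on the opposite strand, had 34.1 RPKM in either library. C3 was at the floor, and GPR108, which shares 649 bp with it on the same strand, had 16.7 and 16.3 RPKM. CFD had 1.41 and 1.19 RPKM and shares 255 bp with MED16 on the opposite strand, at 29.1 and 28.8 RPKM. On chromosome 5, C9, C7 and C6 were at the floor, and between them lay RPL37 at 120.9 and 121.0 RPKM and PRKAA1 at 4.62 and 4.16, but also CARD6 and MROH2B at the floor, as were FYB1 and PLCXD3 outside them. Around the C1q genes, all at the floor, EPHB2 had 8.14 and 8.06 RPKM and ZBTB40 6.80 and 6.51, and LACTBL1 was at the floor. In the regulator cluster of chromosome 1, CR1 and CR2 were at the floor beside C4BPA and CD46. Beside C8B, at 1.01 and 0.917 RPKM, DAB1 had 2.98 and 3.05. On the side of C8A, which was at the floor, FYB2 had 1.35 and 1.21. The neighbours named were chosen after their values were seen.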
